A study of Homo sapiens with 3 samples.

Results

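Cytochrome P450 genes were the 54 of 20635 rows of the deposited mRNA table whose symbol is CYP followed by a family number, a subfamily letter and a gene number, together with the 57 of 92509 circular RNAs (circRNAs) in the deposited table that are assigned to a host gene with such a symbol. The 57 circRNAs came from 13 host genes. RNA was sequenced from 3 cell lines after depletion of ribosomal RNA, with 1 library per line. HCC827 is a lung adenocarcinoma line whose epidermal growth factor receptor (EGFR) carries an activating mutation in the kinase domain, A549 comes from a lung adenocarcinoma without such a mutation (wild-type EGFR), and BEAS-2B, derived from non-cancerous bronchial epithelium, was immortalized in culture. The authors' methods give DMEM with 10% serum for lung cancer cell lines and do not name BEAS-2B there. No treatment is described, so no P450 inducer was added as far as the descriptions say. With a single library for each line, no difference between lines could be set against replicate error, and the values are given without p-values. In bulk RNA, fewer expressing cells and less RNA per cell cannot be told apart.

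Cytochromes P450 are heme enzymes that insert an oxygen atom into their substrate with electrons from a redox partner, which is P450 oxidoreductase in the endoplasmic reticulum and ferredoxin in mitochondria. Some clear drugs and smoke-derived hydrocarbons, among them the CYP1 enzymes induced through the aryl hydrocarbon receptor, while others make or break down sterols, vitamin D, retinoic acid and lipid mediators. Airway epithelium is known for P450s that activate inhaled chemicals, and the liver holds the highest levels of many drug-metabolizing ones. The members were grouped here by their main substrates.

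mRNA levels are FPKM (fragments per kilobase of transcript, scaled to library size), which compare genes per length, and circRNA levels are TPM (an abundance scaled to the same total over the circRNA table in each library). The lowest FPKM values are nearly all exactly 1. This value is termed the floor, and an mRNA at the floor may still be present. Of the 20494 genes with a usable name, 57.0% in HCC827, 56.6% in A549 and 56.4% in BEAS-2B were above the floor. Differences are of log2(FPKM + 1), a scale that understates those of genes with low values, and were called at 2-fold, which is 1 on that scale, for genes that exceeded the floor in either line of a pair. Of 6 epithelial markers, 6 were above the floor in HCC827, 6 in A549 and 4 in BEAS-2B, where EPCAM and CDH1, the epithelial adhesion molecules, stood at 1 FPKM. The keratins KRT18 and KRT19 were also lowest in BEAS-2B, at 1.61 and 1.84 FPKM. KRT7 was highest in BEAS-2B, at 74.4 FPKM beside 26.3 FPKM in HCC827 and 17.5 FPKM in A549. KRT8 was at 91.6 FPKM in HCC827, 1419 FPKM in A549 and 282 FPKM in BEAS-2B. The 4 mesenchymal markers summed to 8.79 FPKM in HCC827, 184 FPKM in A549 and 504 FPKM in BEAS-2B, and the blood, liver and endothelial lists to between 2 and 12.01 FPKM in each line, at 1 FPKM per gene at the floor. Of 6 distal lung markers, 2 were above the floor in HCC827, 1 in A549 and 0 in BEAS-2B, and the list summed to 48.5, 6.14 and 6 FPKM in these lines. NKX2-1, the lung lineage factor, was at 9.92 FPKM in HCC827 and at the floor in A549 and BEAS-2B, and NAPSA, a protease of alveolar cells, was at 34.5 FPKM in HCC827, 1.14 FPKM in A549 and 1 FPKM in BEAS-2B. The surfactant genes SFTPA1, SFTPB, SFTPC and SFTPD and the ciliated and club cell markers FOXJ1 and SCGB1A1 were at the floor in all 3 lines. The part of these marker differences in the P450 results was not tested.

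The 2 P450 genes of A549 that follow CYP24A1 most closely in that line's difference from BEAS-2B, CYP4F11 and CYP4F3, lie in a cluster of related genes on chromosome 19, and their promoters are shown with that of CYP1A1, the classical target of the aryl hydrocarbon receptor. Each sequence is the 250 bases before a RefSeq start site in GRCh38.p14, read 5′ to 3′ on the gene's strand. Capitals mark matches to the antioxidant response element core TGACNNNGC in CYP4F11 and CYP4F3, and to the xenobiotic response element core GCGTG in CYP1A1, both searched on both strands and not overlapping each other.
CYP4F11 upstream window (chr19:15934868-15935117, minus strand): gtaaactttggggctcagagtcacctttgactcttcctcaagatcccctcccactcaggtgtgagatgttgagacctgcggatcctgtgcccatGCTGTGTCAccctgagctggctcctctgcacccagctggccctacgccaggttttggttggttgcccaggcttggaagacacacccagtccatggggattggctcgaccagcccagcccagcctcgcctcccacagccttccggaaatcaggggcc
CYP4F11 downstream window (chr19:15934530-15934779, minus strand): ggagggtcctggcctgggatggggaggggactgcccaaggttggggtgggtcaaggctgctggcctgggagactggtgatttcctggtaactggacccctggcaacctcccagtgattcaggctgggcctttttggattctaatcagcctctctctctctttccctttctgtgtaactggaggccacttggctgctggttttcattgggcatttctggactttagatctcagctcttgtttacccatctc
CYP4F3 (chr19:15641062-15641311, plus strand): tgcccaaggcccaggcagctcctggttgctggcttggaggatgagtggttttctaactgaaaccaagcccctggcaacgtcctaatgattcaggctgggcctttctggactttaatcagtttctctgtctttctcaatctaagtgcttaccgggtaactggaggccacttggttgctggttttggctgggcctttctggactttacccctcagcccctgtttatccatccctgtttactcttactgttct
CYP1A1 (chr15:74725529-74725778, minus strand): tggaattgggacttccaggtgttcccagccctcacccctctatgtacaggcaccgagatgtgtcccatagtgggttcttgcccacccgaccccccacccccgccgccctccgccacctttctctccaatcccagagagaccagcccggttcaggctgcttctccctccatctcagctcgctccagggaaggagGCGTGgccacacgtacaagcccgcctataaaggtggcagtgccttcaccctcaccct
The downstream CYP4F11 window and that of CYP4F3 hold no match to TGACNNNGC, while the upstream CYP4F11 window holds 1 on the opposite strand. In an alignment, the downstream CYP4F11 window and the CYP4F3 window were identical in 60.9% of columns, within the range of 44.4% to 65.7% over pairs of CYP4F windows. TGACNNNGC was found in 10.9% of all 35116 windows of this length and in 3 of the 51 windows of 38 P450 genes that matched by symbol, or 5.88%. GCGTG was found in 32.2% of all windows and in 11 of the 51, or 21.6%. A match is a description of the letters only.

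Few P450 genes were above the floor, and most of those above it in a single line were so in a cancer line. HCC827 had 18 of the 54 members above 1 FPKM, A549 had 17 and BEAS-2B had 11. In all 3 lines at once, 9 members were above the floor, which is 16.7% of the members against 46.1% of all genes. Those above it in a single line were 9 in HCC827, 8 in A549 and 2 in BEAS-2B, or 16.7%, 14.8% and 3.70% of the members, against 4.12%, 3.21% and 3.40% of all genes. The share in BEAS-2B was thus close to that of all genes. The remaining 26 members stood at the floor in all 3 lines (48.1% of members, 32.7% of all genes). They included the enzymes of drugs and other foreign compounds CYP2A13, CYP2B6, CYP2C8, CYP2C18, CYP2C19, CYP3A4, CYP3A7 and CYP3A43, the steroid and bile acid enzymes CYP7A1, CYP7B1, CYP8B1, CYP11A1, CYP11B1, CYP11B2, CYP17A1, CYP21A2 and CYP39A1, the retinoid and vitamin enzymes CYP26C1 and CYP27C1, the fatty acid enzymes CYP4B1, CYP4F2 and CYP4F22, and CYP2A7, CYP2W1 and CYP4X1.

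**Figure D1:**
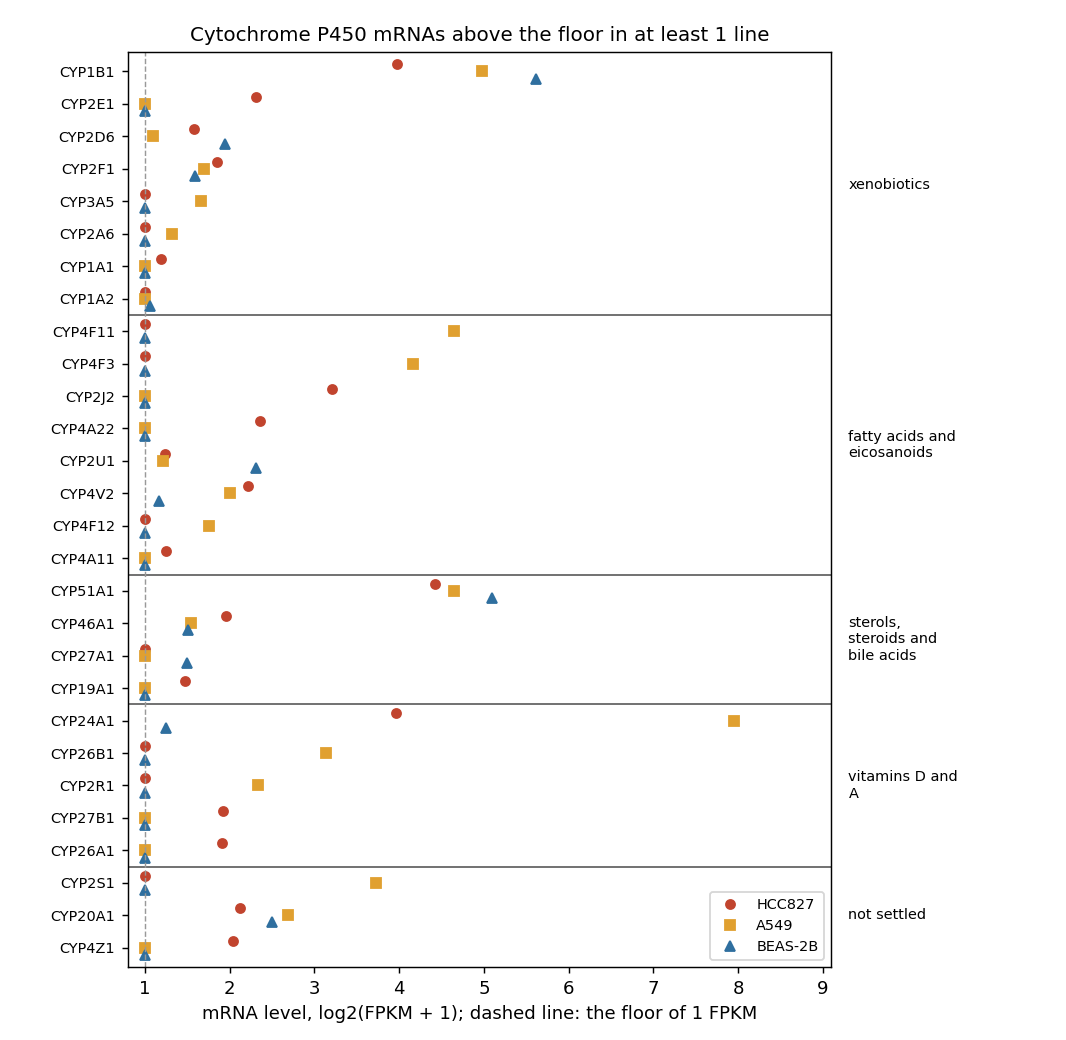
mRNA levels of the 28 cytochrome P450 genes above the floor in at least 1 line, as log2(FPKM + 1) with 1 library per line, grouped by main substrate. The highest point is CYP24A1 in A549 at 246 FPKM, and CYP1B1, CYP51A1 and CYP24A1 are the members above 10 FPKM in more than 1 line.

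The highest member differed between the lines. CYP51A1, which removes a methyl group from lanosterol in cholesterol synthesis, led in HCC827 with 20.5 FPKM, and made up 21.6% of the summed FPKM of the members above the floor. CYP24A1, the mitochondrial enzyme that inactivates vitamin D hormone, led in A549 with 246 FPKM, or 63.6% of the sum. CYP1B1, which oxidizes oestrogens and polycyclic hydrocarbons, led in BEAS-2B with 47.8 FPKM, or 46.9% of the sum. The summed level of the members above the floor was 95.1 FPKM in HCC827, 387 FPKM in A549 and 102 FPKM in BEAS-2B. Among members above the floor the median was 2.99 FPKM in HCC827, 4.04 FPKM in A549 and 2.02 FPKM in BEAS-2B, below the medians of all genes above it, which were 6.39, 6.26 and 7.26 FPKM in the same order of lines.

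Against BEAS-2B, 6 of the 20 members compared in HCC827 were higher by at least 2-fold and 2 were lower, which is 30% and 10% of them, against 12.9% and 16.6% of all 13138 genes compared. In A549, 6 of 19 were higher and 1 was lower, or 31.6% and 5.26%, against 10.5% and 15.3% of 12952 genes. The comparisons share the BEAS-2B library. Most of the members called higher were compared only because the cancer line was above the floor, so their share follows in part from that filter. The median difference of the members compared was 0.35 in HCC827 and 0.32 in A549, on the log2(FPKM + 1) scale, beside -0.14 and -0.16 for all genes compared. Members above the floor in both lines of a pair were the 9 above it in all 3 lines. Of these 9, HCC827 had 2 higher and 2 lower, beside 1017 and 1558 of 10112 genes under that filter. A549 had 1 higher and 1 lower, beside 817 and 1497 of 10206 genes. The median difference of these 9 was -0.36 in HCC827 and 0.04 in A549, beside -0.18 and -0.21 for all genes under that filter. The higher median of the members was thus not kept in HCC827 under this filter. Between the cancer lines, HCC827 had 4 of 26 members higher than A549 and 7 lower, or 15.4% and 26.9%, against 13.8% and 12.4% of 13100 genes. Most of these called members were compared only because the line with the higher value was above the floor. With both cancer lines above the floor, 0 of the 9 were higher and 2 were lower, beside 1162 and 1054 of 10172 genes. Median-of-ratios scaling brought the medians of all genes against BEAS-2B to 0.04 and 0.03, and the share of higher calls among all called genes to 56.2% in HCC827 and 56.7% in A549, against 43.8% and 40.7% without it.

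**Figure D2:**
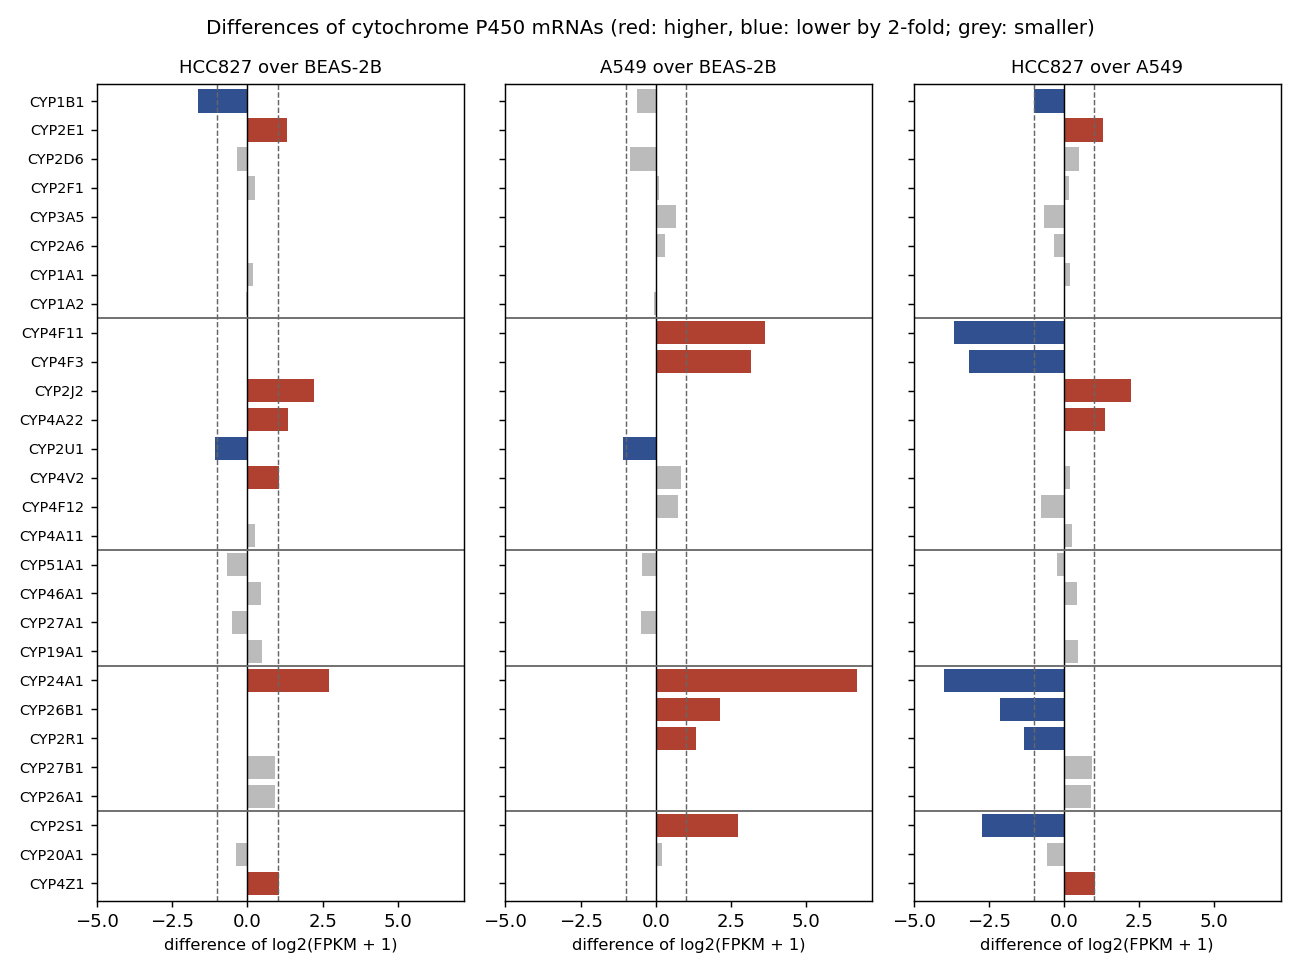
Differences of log2(FPKM + 1) for the same 28 genes in the 3 comparisons, 1 library per line, with dashed lines at 2-fold and bars in red (higher) or blue (lower) where they reach it. CYP24A1 has the longest bar in each comparison, at 2.71 for HCC827 over BEAS-2B, 6.70 for A549 over BEAS-2B and -3.99 for HCC827 over A549.

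Among the 7 enzymes of vitamins D and A, CYP24A1 was higher in both cancer lines and the others were above the floor in 1 cancer line each or in none. CYP24A1 was at 14.6 FPKM in HCC827, 246 FPKM in A549 and 1.38 FPKM in BEAS-2B, and it was number 122 from the top of all genes in A549. It exceeded BEAS-2B by 2.71 in HCC827 and by 6.70 in A549, and the difference of HCC827 over A549 was -3.99 on the log2(FPKM + 1) scale. The genes next to it in the reference order did not share this range. PFDN4 stood at 49.8 FPKM in HCC827, 75.2 FPKM in A549 and 68.2 FPKM in BEAS-2B, and BCAS1 at 1, 3.30 and 1 FPKM in these lines. CYP2R1, which carries out the first activating step of vitamin D, was at 1 FPKM in HCC827, 4.04 FPKM in A549 and 1 FPKM in BEAS-2B. CYP27B1, which makes the active hormone, was at 2.78 FPKM in HCC827 and at the floor in A549 and BEAS-2B. CYP2R1 was thus above the floor in A549 alone and CYP27B1 in HCC827 alone, both at low values. Either mRNA may still be present in a line that lists it at the floor.

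The 2 retinoic acid hydroxylases above the floor were also split between the cancer lines. CYP26B1 was at 1 FPKM in HCC827, 7.79 FPKM in A549 and 1 FPKM in BEAS-2B, a difference of 2.14 for A549 over BEAS-2B. CYP26A1 was at 2.77 FPKM in HCC827 and at the floor in A549 and BEAS-2B. The difference of HCC827 over BEAS-2B was 0.91 for CYP26A1 and 0.92 for CYP27B1, both under 2-fold, and median-of-ratios scaling took them to 1.04 and 1.05.

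Among the fatty acid and eicosanoid enzymes, few could be compared with BEAS-2B. Most of those called higher were compared only because the cancer line was above the floor. Of 11 members in the table, 8 were above the floor somewhere and 5 could be compared in each cancer line against BEAS-2B. Of these 5, HCC827 had 3 higher and 1 lower, and A549 had 2 higher and 1 lower, where 12.9% and 16.6% of all genes in HCC827 and 10.5% and 15.3% in A549 were called. CYP4F11, which hydroxylates the end of long fatty acids and of vitamin K, was at 1 FPKM in HCC827, 24.1 FPKM in A549 and 1 FPKM in BEAS-2B. CYP4F3, which inactivates a leukotriene that draws neutrophils, was at 1 FPKM in HCC827, 16.8 FPKM in A549 and 1 FPKM in BEAS-2B. CYP4F12 of the same subfamily was at 2.37 FPKM in A549 and at the floor in the other lines. These 3 genes were thus above the floor in A549 alone, while CYP4F2 and CYP4F22 of the same cluster were at the floor everywhere. The differences for A549 over BEAS-2B were 3.65 for CYP4F11, 3.16 for CYP4F3 and 0.75 for CYP4F12. Reads may be shared between these similar copies, so the split between them is uncertain.

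CYP2J2, CYP4A22 and CYP4A11 were above the floor in HCC827 alone, and CYP4V2 and CYP2U1 in every line. CYP2J2, which forms epoxides of arachidonic acid, was at 8.26 FPKM in HCC827 and at the floor in A549 and BEAS-2B, a difference of 2.21 from each. On one side of it in the reference order, HOOK1 was at 20.5 FPKM and FGGY at 6.08 FPKM in HCC827, both at the floor elsewhere. On the other side, C1orf87 was at the floor in all 3 lines. NFIA, beyond it, was at 9.82 FPKM in HCC827, 12.5 FPKM in A549 and 1 FPKM in BEAS-2B. CYP4A22 was at 4.11 FPKM and CYP4A11 at 1.38 FPKM in HCC827, both at the floor elsewhere, and these neighbouring fatty acid hydroxylases are near-identical copies whose values may not be separable. CYP4V2, which hydroxylates fatty acids and is mutated in a crystalline retinal dystrophy, was at 3.66 FPKM in HCC827, 3.02 FPKM in A549 and 1.25 FPKM in BEAS-2B. Its difference was 1.05 for HCC827 over BEAS-2B and 0.83 for A549 over BEAS-2B, so only the first was called, although the cancer lines lay close together. CYP2U1, a fatty acid hydroxylase mutated in a spastic paraplegia, ran the other way, at 1.37 FPKM in HCC827, 1.31 FPKM in A549 and 3.95 FPKM in BEAS-2B. It was the only member lower in both cancer lines, by -1.06 and -1.10, and neither difference reached 2-fold after median-of-ratios scaling (-0.90 and -0.92).

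Of the 17 enzymes that act mainly on drugs and other foreign compounds, 8 were above the floor in some line and CYP1B1 was the only one above 4 FPKM. CYP1B1 was at 14.7 FPKM in HCC827, 30.5 FPKM in A549 and 47.8 FPKM in BEAS-2B. The difference was -1.63 for HCC827 over BEAS-2B, -0.63 for A549 over BEAS-2B and -1.002 for HCC827 over A549, which just reached 2-fold. Its relatives of the same family stayed low. CYP1A1, whose promoter is printed above, was at 1.28 FPKM in HCC827 and at the floor in A549 and BEAS-2B, and CYP1A2, which metabolizes caffeine, was at 1.08 FPKM in BEAS-2B alone. CYP2E1, which oxidizes ethanol and small solvents, was at 3.94 FPKM in HCC827 and at the floor in A549 and BEAS-2B, a difference of 1.31. CYP2F1, a lung P450 known for activating naphthalene, was at 2.60 FPKM in HCC827, 2.24 FPKM in A549 and 2.02 FPKM in BEAS-2B, with differences under 2-fold in each comparison. CYP3A5, a drug-metabolizing enzyme found outside the liver, was at 2.16 FPKM and CYP2A6, which clears nicotine, at 1.503 FPKM in A549, both at the floor in the other lines. CYP2D6, which metabolizes many drugs, was at 1.999 FPKM in HCC827, 1.14 FPKM in A549 and 2.86 FPKM in BEAS-2B. Its pseudogene CYP2D7P1 was at 1, 1 and 3.80 FPKM in these lines, and reads of such close copies may be shared, so the CYP2D6 values are uncertain.

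No member of the sterol, steroid and bile acid group reached 2-fold in any comparison, but few of its 13 members could be compared. They numbered 4 for HCC827 over BEAS-2B, 3 for A549 over BEAS-2B and 3 for HCC827 over A549. Over all genes, 12.9% were higher and 16.6% lower for HCC827 over BEAS-2B, 10.5% and 15.3% for A549 over BEAS-2B, and 13.8% and 12.4% for HCC827 over A549. Apart from CYP51A1, the group stayed under 3 FPKM, where a 2-fold difference of FPKM + 1 from the floor cannot be reached. CYP51A1 was at 20.5 FPKM in HCC827, 24.1 FPKM in A549 and 33.2 FPKM in BEAS-2B, with differences from BEAS-2B of -0.67 and -0.45. CYP46A1, the cholesterol hydroxylase known from brain, was at 2.89 FPKM in HCC827, 1.91 FPKM in A549 and 1.84 FPKM in BEAS-2B. CYP27A1, a mitochondrial sterol hydroxylase of bile acid synthesis, was at the floor in HCC827 and A549 and at 1.83 FPKM in BEAS-2B, and CYP19A1, the aromatase that makes oestrogens, was at 1.79 FPKM in HCC827 and at the floor in A549 and BEAS-2B. The other 9 of the 13 members were at the floor throughout.

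Among the members with no settled substrate, CYP2S1 and CYP4Z1 were each above the floor in 1 line. CYP2S1, an enzyme of epithelia outside the liver, was at 1 FPKM in HCC827, 12.3 FPKM in A549 and 1 FPKM in BEAS-2B, a difference of 2.73 for A549 over BEAS-2B. CYP4Z1, known from mammary tissue, was at 3.10 FPKM in HCC827 and at the floor in A549 and BEAS-2B, a difference of 1.03. CYP20A1 was above the floor in every line, at 3.35 FPKM in HCC827, 5.45 FPKM in A549 and 4.64 FPKM in BEAS-2B, and differed by less than 2-fold in each comparison.

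Few circRNAs of P450 hosts were listed above 0 in HCC827. Of the 57, 3 were above 0 TPM in HCC827, 28 in A549 and 32 in BEAS-2B, or 5.26%, 49.1% and 56.1%, against 5.34%, 47.5% and 46.2% of all circRNAs in the table. The low number in HCC827 was thus shared with the whole table. Above 5 TPM in at least 1 line were 21 circRNAs of 9 hosts, and 23 were listed at 0 in all 3 lines. No source used here names the program that made the TPM values or says how linear transcripts of the host were separated, and the part of linear RNA in them was not tested. Differences were called past a ratio of 5 of TPM + 1 when a circRNA was above 5 TPM in at least 1 of the lines compared.

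In A549, 13 of the 21 circRNAs compared with BEAS-2B were over 5-fold higher, which is 61.9% against 7.13% of all 25512 circRNAs compared, and 0 were lower, against 6.64%. These 13 are not independent, as 8 belong to CYP24A1 and 2 to CYP4F11, with 1 each of CYP2S1, CYP26B1 and CYP2W1. Most of the 13 were compared only because A549 was above 5 TPM, so their share follows in part from that filter. With both lines above 5 TPM, 3 were higher, all of CYP24A1, and 0 were lower, beside 154 and 135 of 17133 circRNAs. In HCC827 against BEAS-2B, 2 of 12 were higher and 10 were lower, or 16.7% and 83.3%, against 11.1% and 81.9% of 23736. In HCC827 against A549, 0 of 19 were higher and 17 were lower, or 89.5%, against 11.8% and 81.4% of 23091. Each P450 circRNA called lower in HCC827 was listed at 0 TPM in that line.

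**Figure D3:**
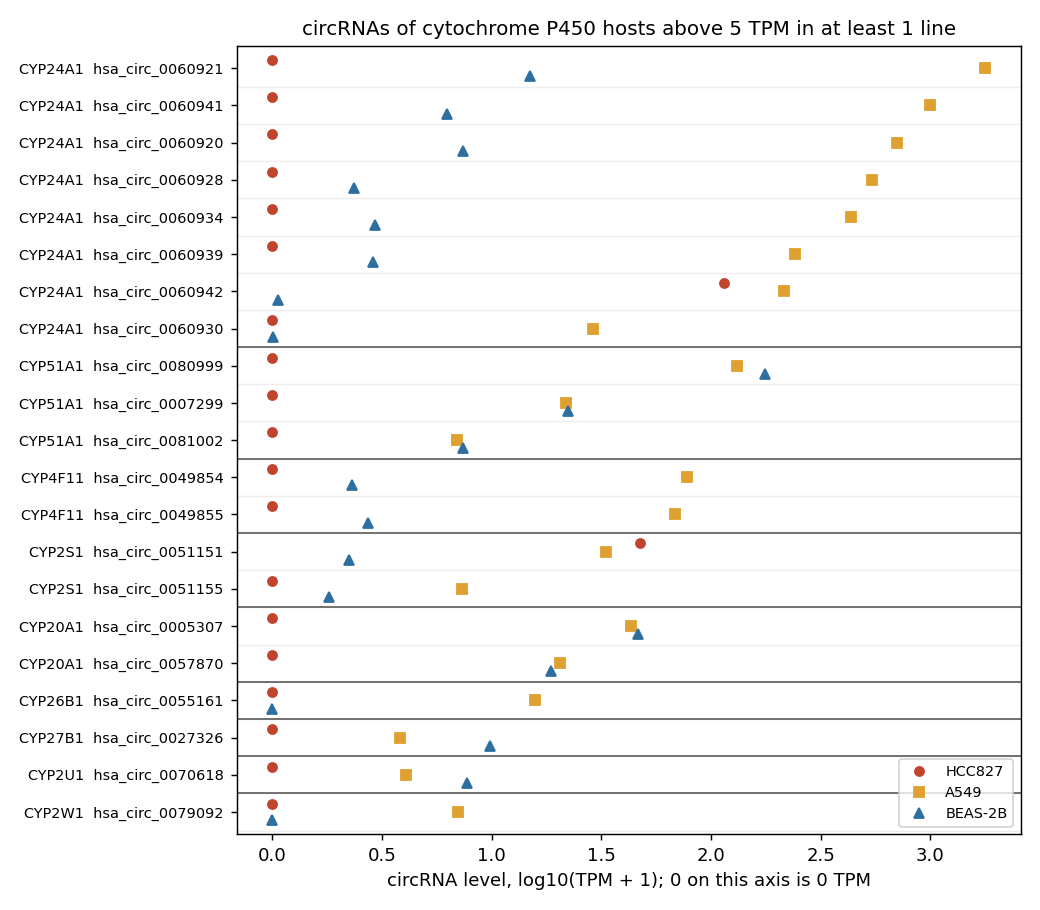
Levels of the 21 circRNAs of P450 hosts above 5 TPM in at least 1 line, as log10(TPM + 1) with 1 library per line, grouped by host gene. The 8 circRNAs of CYP24A1 lie between 28.0 and 1775 TPM in A549, and HCC827 is at 0 TPM for all but hsa_circ_0060942 and hsa_circ_0051151.

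CYP24A1 had the most circRNAs of the P450 hosts, 25 between positions 52773707 and 52790516 of chromosome 20 (hg19, minus strand, as the table gives them), of which 14 were at 0 TPM in all lines. Its circRNAs summed to 114 TPM in HCC827, 4937 TPM in A549 and 34.2 TPM in BEAS-2B, and made up 91.9% of the summed TPM of all P450 hosts in A549. The highest was hsa_circ_0060921 (chr20:52773707-52774124, 417 bases of genome), at 0 TPM in HCC827, 1775 TPM in A549 and 13.9 TPM in BEAS-2B, which was number 34 from the top of the A549 table. hsa_circ_0060941 (chr20:52780990-52788209) was at 0 TPM in HCC827, 996 TPM in A549 and 5.25 TPM in BEAS-2B. hsa_circ_0060920 (chr20:52773707-52773828) was at 0 TPM in HCC827, 708 TPM in A549 and 6.38 TPM in BEAS-2B. A549 thus stood far above BEAS-2B for each of them, and HCC827 listed none. hsa_circ_0060928 was at 0 TPM in HCC827, 542 TPM in A549 and 1.35 TPM in BEAS-2B, and hsa_circ_0060934 at 0, 434 and 1.95 TPM. The order of the lines for these circRNAs was A549 above BEAS-2B above HCC827, a line that listed most circRNAs of the whole table at 0 TPM. The summed TPM had the same order as the host mRNA, with HCC827 between A549 and BEAS-2B, but the HCC827 sum rests on 1 circRNA.

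A single CYP24A1 circRNA was listed above 0 TPM in HCC827. It was hsa_circ_0060942 (chr20:52782280-52790516), at 114 TPM in HCC827, 213 TPM in A549 and 0.0583 TPM in BEAS-2B. It starts at the same 5′ position as hsa_circ_0060930 (chr20:52773707-52790516) and hsa_circ_0060939 (chr20:52779255-52790516), which HCC827 lists at 0 TPM and A549 at 28.0 TPM and 242 TPM. The spans of these circRNAs overlap, so their values may share sequence and are not separate observations of the locus. For hsa_circ_0060942 the TPM ratio of HCC827 to A549 was 0.534, and 0.172 after median-of-ratios scaling. Over all circRNAs above 5 TPM in both lines of a pair, the median ratio was 2.89 for HCC827 over BEAS-2B. It was 3.30 for HCC827 over A549, so the TPM values of HCC827 ran high for the circRNAs it listed.

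**Figure D4:**
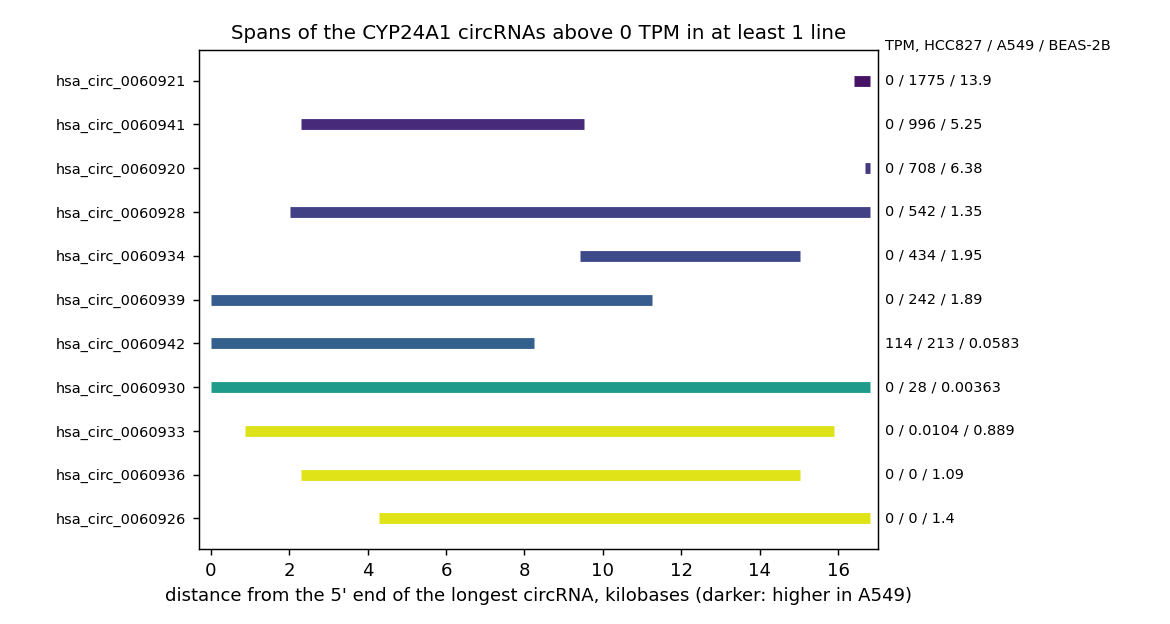
Genomic spans of the 11 CYP24A1 circRNAs above 0 TPM in at least 1 line, drawn as distance in kilobases from the 5′ end of the longest, with TPM in HCC827, A549 and BEAS-2B at the right and darker bars for higher A549 values. The highest value, 1775 TPM in A549, belongs to a span of 417 bases at the 3′ side, and the only one above 0 TPM in HCC827 lies at the 5′ side.

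The other circRNAs over 5-fold higher in A549 than in BEAS-2B came from CYP4F11, CYP26B1 and CYP2S1, whose mRNA was above the floor in A549 alone, and from CYP2W1. hsa_circ_0049854 of CYP4F11 (chr19:16034621-16038149, minus strand) was at 0 TPM in HCC827, 76.6 TPM in A549 and 1.30 TPM in BEAS-2B, and hsa_circ_0049855 of the same gene (chr19:16035570-16038149) at 0, 67.5 and 1.72 TPM. hsa_circ_0055161 of CYP26B1 (chr2:72361889-72362548, minus strand) was at 0 TPM in HCC827, 14.7 TPM in A549 and 0 TPM in BEAS-2B. CYP4F3 had 1 circRNA in the table, hsa_circ_0000903, at 0 TPM in HCC827, 3.64 TPM in A549 and 0.0772 TPM in BEAS-2B, below the level needed for a comparison. hsa_circ_0079092 of CYP2W1 was at 0 TPM in HCC827, 6.01 TPM in A549 and 0 TPM in BEAS-2B, although the CYP2W1 mRNA was at the floor in all 3 lines.

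For CYP2S1 the circRNA and the mRNA gave HCC827 a different place. hsa_circ_0051151 (chr19:41700448-41713444, plus strand) was at 46.4 TPM in HCC827, 32.1 TPM in A549 and 1.24 TPM in BEAS-2B, while the mRNA stood at 1 FPKM in HCC827 and 12.3 FPKM in A549. A second CYP2S1 circRNA, hsa_circ_0051155, was at 0 TPM in HCC827, 6.30 TPM in A549 and 0.821 TPM in BEAS-2B, a ratio under 5-fold. The TPM ratio of HCC827 to A549 for hsa_circ_0051151 was 1.44, and it turned to 0.464 after median-of-ratios scaling. The third member above 0 TPM in HCC827, hsa_circ_0019246 of CYP2C18, was at 1.22 TPM in HCC827, 0.743 TPM in A549 and 0.534 TPM in BEAS-2B. Scaling turned its order too, as the TPM ratio of HCC827 to BEAS-2B was 2.29 before and 0.81 after it and that of HCC827 to A549 was 1.64 before and 0.527 after it.

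The circRNAs of CYP51A1, CYP20A1, CYP2U1 and CYP27B1 did not pass 5-fold between A549 and BEAS-2B. HCC827 listed all of them at 0 TPM, as it did most circRNAs of the whole table. hsa_circ_0080999 of CYP51A1 (chr7:91746357-91747929, minus strand) was at 0 TPM in HCC827, 130.3 TPM in A549 and 176 TPM in BEAS-2B, while its host mRNA was at 20.5 FPKM in HCC827. hsa_circ_0005307 of CYP20A1 (chr2:204154487-204157049, plus strand) was at 0 TPM in HCC827, 42.3 TPM in A549 and 45.6 TPM in BEAS-2B. The other 3 CYP51A1 and CYP20A1 circRNAs above 5 TPM, hsa_circ_0007299, hsa_circ_0081002 and hsa_circ_0057870, were between 5.93 and 20.7 TPM in A549 and between 6.43 and 21.2 TPM in BEAS-2B. hsa_circ_0070618 of CYP2U1 was at 0 TPM in HCC827, 3.08 TPM in A549 and 6.72 TPM in BEAS-2B, the same order of A549 and BEAS-2B as its mRNA. hsa_circ_0027326 of CYP27B1 was at 0 TPM in HCC827, 2.82 TPM in A549 and 8.89 TPM in BEAS-2B, whereas the CYP27B1 mRNA was above the floor in HCC827 alone.

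The listed electron donors and related partner genes were above the floor in all 3 lines, apart from FDXR in HCC827. Not every gene of this list is needed by P450s. Of 9 genes, HCC827 had 1 higher and 2 lower than BEAS-2B and A549 had 3 higher and 1 lower, while HCC827 set against A549 had 1 higher and 3 lower. The shares over all genes were 12.9% higher and 16.6% lower for HCC827 over BEAS-2B, 10.5% and 15.3% for A549 over BEAS-2B, and 13.8% and 12.4% for HCC827 over A549, and with so few genes the counts of this and the following lists are given as descriptions beside these shares. POR, the oxidoreductase that serves microsomal P450s, was at 11.2 FPKM in HCC827, 26.0 FPKM in A549 and 7.92 FPKM in BEAS-2B. FDXR, the reductase of the mitochondrial chain that feeds CYP24A1 and CYP27B1, was at 1 FPKM in HCC827, 12.7 FPKM in A549 and 4.76 FPKM in BEAS-2B. FDX1, the ferredoxin of that chain, was at 4.04 FPKM in HCC827, 3.14 FPKM in A549 and 3.11 FPKM in BEAS-2B. A549, the line with the highest CYP24A1, thus also listed the highest FDXR and POR, while its FDX1 differed by less than 2-fold from the other lines. PGRMC1, a heme-binding partner of P450s, was at 66.4 FPKM in HCC827, 63.1 FPKM in A549 and 30.8 FPKM in BEAS-2B. CYB5B, a cytochrome b5 of the outer mitochondrial membrane, was at 24.4 FPKM in HCC827, 70.7 FPKM in A549 and 48.2 FPKM in BEAS-2B. CYB5R3, the reductase of cytochrome b5, was at 9.87 FPKM in HCC827, 17.6 FPKM in A549 and 35.8 FPKM in BEAS-2B. FDX1L, the second ferredoxin gene, was at 19.0 FPKM in HCC827, 4.10 FPKM in A549 and 9.84 FPKM in BEAS-2B. The genes of this list thus had no common line order.

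Of 11 genes of heme synthesis and breakdown, HCC827 had 0 higher and 2 lower than BEAS-2B, A549 had 2 higher and 1 lower than BEAS-2B, and HCC827 had 1 higher and 3 lower than A549. HMOX1, the inducible heme oxygenase, was at 2.17 FPKM in HCC827, 26.0 FPKM in A549 and 8.23 FPKM in BEAS-2B. ALAS1, the rate-limiting enzyme of heme synthesis in most cells, was at 17.1 FPKM in HCC827, 19.4 FPKM in A549 and 19.5 FPKM in BEAS-2B and so was nearly level. UROD, a later enzyme of that pathway, was at 24.5 FPKM in HCC827, 12.3 FPKM in A549 and 34.0 FPKM in BEAS-2B. Among the breakdown genes, the inducible oxygenase and both biliverdin reductases had their highest value in A549 and the constitutive oxygenase HMOX2 its lowest. HMOX2 was at 25.3 FPKM in HCC827, 8.09 FPKM in A549 and 16.6 FPKM in BEAS-2B. BLVRA, a biliverdin reductase, was at 13.1 FPKM in HCC827, 58.8 FPKM in A549 and 43.2 FPKM in BEAS-2B, and BLVRB, the other, at 1.12, 3.91 and 1 FPKM in these lines.

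**Figure D5:**
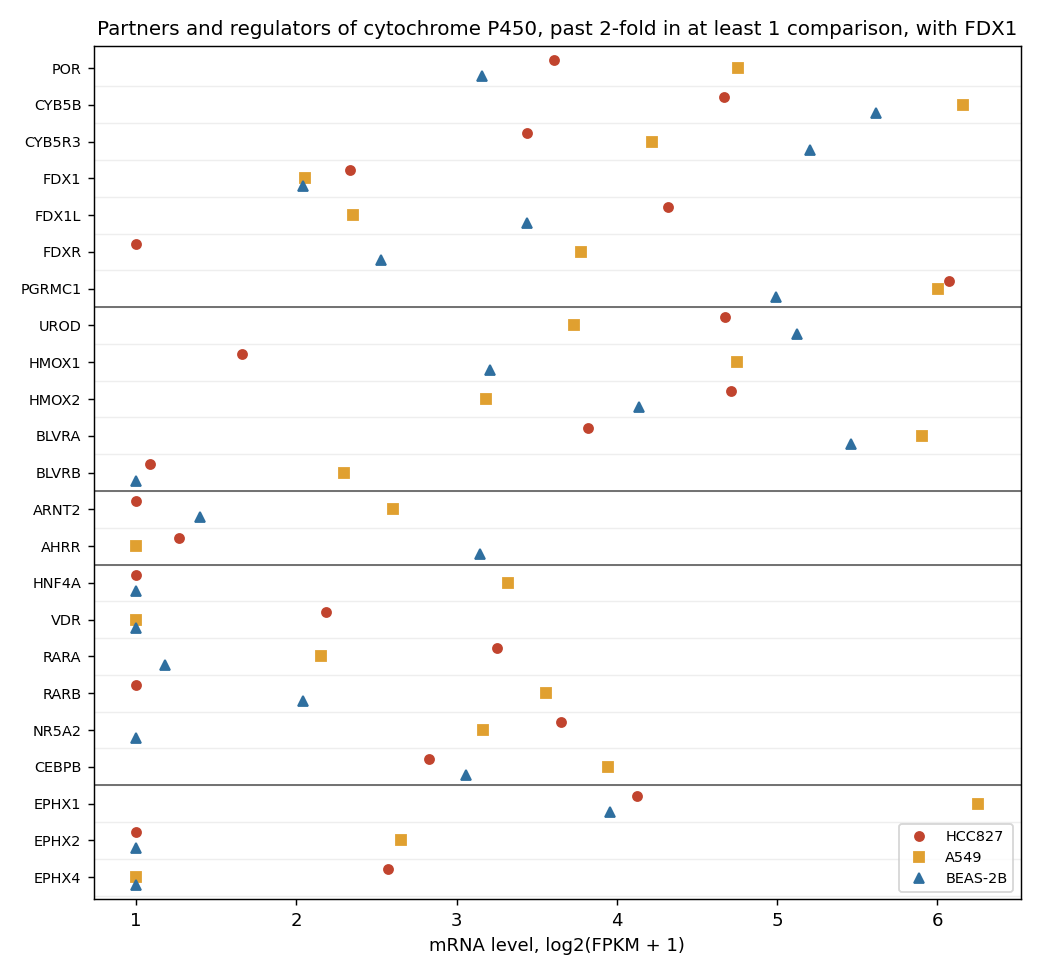
mRNA levels, as log2(FPKM + 1) with 1 library per line, of electron donors and related partner genes, heme genes, aryl hydrocarbon receptor genes, other regulators and epoxide hydrolases that passed 2-fold in at least 1 comparison, with FDX1. POR, FDXR, HMOX1 and EPHX1 have their highest value in A549, at 26.0, 12.7, 26.0 and 75.5 FPKM.

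The aryl hydrocarbon receptor genes were measured beside CYP1B1, which this receptor induces. AHR itself was at 40.1 FPKM in HCC827, 28.2 FPKM in A549 and 26.4 FPKM in BEAS-2B, under 2-fold in each comparison. AHRR, the repressor that the receptor also induces, was at 1.41 FPKM in HCC827, 1 FPKM in A549 and 7.85 FPKM in BEAS-2B. CYP1B1 and AHRR both had their highest value in BEAS-2B, and the AHR mRNA did not. CYP1A1, the classical target, was above the floor in HCC827 alone, at 1.28 FPKM. ARNT, the dimer partner of AHR, was at 7.70 FPKM in HCC827, 9.88 FPKM in A549 and 16.2 FPKM in BEAS-2B. TIPARP, also of this list, was at 9.84, 5.30 and 10.9 FPKM in these lines. Both ARNT and TIPARP differed by less than 2-fold in each comparison. ARNT2, a relative of ARNT, was at 1 FPKM in HCC827, 5.09 FPKM in A549 and 1.64 FPKM in BEAS-2B. Of the 5 genes of this list, HCC827 had 0 higher and 1 lower than BEAS-2B, A549 had 1 higher and 1 lower than BEAS-2B, and HCC827 had 0 higher and 1 lower than A549.

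Of 22 other nuclear receptors and regulators, 14 could be compared with BEAS-2B in each cancer line and 16 between the cancer lines. HCC827 had 3 higher and 1 lower than BEAS-2B, A549 had 3 higher and 0 lower than BEAS-2B, and HCC827 had 2 higher and 3 lower than A549. VDR, the vitamin D receptor that induces CYP24A1, was at 3.55 FPKM in HCC827 and at the floor in A549 and BEAS-2B, so the line with the highest CYP24A1 mRNA listed VDR at the floor. RARB, a receptor for the retinoic acid that CYP26 enzymes clear, was at 1 FPKM in HCC827, 10.8 FPKM in A549 and 3.12 FPKM in BEAS-2B. RARA, another of these receptors, was at 8.51 FPKM in HCC827, 3.46 FPKM in A549 and 1.26 FPKM in BEAS-2B. HNF4A, a regulator of liver P450s, was at 9.01 FPKM in A549 and at the floor in HCC827 and BEAS-2B. NR5A2, a receptor that regulates bile acid and steroid P450s, was at 11.6 FPKM in HCC827, 7.96 FPKM in A549 and 1 FPKM in BEAS-2B. CEBPB, a transcription factor of liver and inflammation, was at 6.09 FPKM in HCC827, 14.4 FPKM in A549 and 7.34 FPKM in BEAS-2B. The liver receptors NR1I2 and NR1I3, which induce CYP3A and CYP2B genes, were at the floor in all 3 lines, as were CYP3A4 and CYP2B6.

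Among the epoxide hydrolases, which act on epoxides that P450s form, EPHX1 and EPHX2 were highest in A549 and EPHX4 in HCC827. EPHX1, the microsomal form, was at 16.5 FPKM in HCC827, 75.5 FPKM in A549 and 14.5 FPKM in BEAS-2B. EPHX2, the soluble form that acts on the arachidonic acid epoxides made by CYP2J2, was at 1 FPKM in HCC827, 5.29 FPKM in A549 and 1 FPKM in BEAS-2B, so it and CYP2J2 were above the floor in different cancer lines. EPHX4, a relative of unsettled substrate, was at 4.94 FPKM in HCC827 and at the floor in A549 and BEAS-2B.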

How the data were processed

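mRNA and circRNA were measured in 1 library each of HCC827, A549 and BEAS-2B. mRNA was deposited in FPKM by the authors, whose methods name PEAT, STAR, Cufflinks and GENCODE with a mouse genome build for these human lines, while the submitters' processing notes name the hg19 build and, with no role stated, kallisto, sleuth and FastQC 0.11.7. circRNA was deposited in TPM by the authors, and the program is not given in the sources used here. The deposited fold changes, ratios of HCC827 to BEAS-2B by the authors, and the lists of predicted miRNA targets were not used. The sequencing depth is unknown, so no counting interval could be given, and sources differ on the RNA extraction kit.

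Of 20635 mRNA rows, 117 with a repeated name and 28 whose name had turned into a number, some in both sets, were left out, which removed no P450 gene. Differences were computed with Python 3.11.15, numpy 2.4.6 and pandas 2.3.3, with 1 FPKM or 1 TPM added to both values, and calls were tested on simulated data. Values of 1 FPKM or slightly less counted as the floor. CYP4F8 mRNA and PECAM1 were not analysed here. Groups came from the sample titles. The members, the gene lists, the 2-fold limit and the alternatives were chosen with earlier results of these data known. Every P450 gene above the floor in at least 1 line was named with its values, the other list genes by their calls or because P450s need them. Others (neighbours of CYP24A1 and CYP2J2, ALAS1, AHR, ARNT, TIPARP, NR1I2 and NR1I3), CYP2C18 and CYP4F3 circRNAs and the antioxidant motif were chosen after their values were seen. The alternatives were other pseudocounts, filters, fold limits and scalings, all name rows, and other TPM levels. Some genes are not reported here.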

Additional observations from a re-analysis of the deposited data

Results flagged for a closer look

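Outside the symbol rule, the P450 pseudogene CYP4F31P was listed at 5.36 FPKM in HCC827, above its value of 1 FPKM in A549 and BEAS-2B. The thromboxane synthase gene TBXAS1, which encodes a P450 under another name, was at 1.75 FPKM in A549 and at 1 FPKM in HCC827 and BEAS-2B. Both were singled out because they lay above BEAS-2B in rows outside the P450 symbol rule, and the difference of TBXAS1 for A549 over BEAS-2B, 0.46 on the log2(FPKM + 1) scale, was under 2-fold.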

How the results depend on the processing

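Of 78 counts of P450 mRNAs or circRNAs recomputed under an alternative, 57 stayed within 1.5 times, and of 531 single-gene differences 492 stayed on the same side of the fold limit, 39 crossed it and 0 reversed. The filters, the 4-fold limit and the added rows leave a single-gene difference as it was, and a pseudocount cannot turn its sign. Only scaling could turn a sign, so the count of 0 reversed was largely fixed in advance. For HCC827 over BEAS-2B, higher and lower mRNAs numbered 6 and 2. With a pseudocount of 5 they numbered 2 and 1, with a 4-fold limit 2 and 0, with both lines above the floor 2 were higher, and with median-of-ratios scaling 1 was lower. For A549 over BEAS-2B they numbered 6 and 1. With both lines above the floor 1 was higher, without a pseudocount 2 were lower, and with a pseudocount of 5, a 4-fold limit or scaling 0 were lower. For HCC827 over A549 they numbered 4 and 7. With a pseudocount of 5 or a 4-fold limit 1 was higher, and with both lines above the floor 0 were higher and 2 lower. For circRNAs, requiring 5 TPM in each line gave 0 higher and 0 lower for HCC827 over BEAS-2B, 3 higher for A549 over BEAS-2B and 0 lower for HCC827 over A549, a level of 10 TPM gave 5 lower for HCC827 over BEAS-2B, and a 2-fold limit 1 lower for A549 over BEAS-2B. Over all genes, the counts per comparison and direction were 1361 to 2181, against 612 to 1000 with a pseudocount of 5, 817 to 1558 with both lines above the floor and 374 to 493 with a 4-fold limit. Stricter filters and limits admit fewer genes by construction, and the cause of the other shifts was not tested. No paired analysis was possible because each line has 1 library. Depth limits could not be assessed, as FPKM and TPM keep no counts.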
